A study of Homo sapiens with 2 samples.

Results

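Cystatins are small protein inhibitors of cysteine proteases, above all of the lysosomal cathepsins. CSTB encodes cystatin B, also called stefin B, which stays inside the cell, whereas CST3 (cystatin C), CST6 (cystatin M), CST1 (cystatin SN) and CST4 (cystatin S) encode secreted inhibitors. Cystatin C is made by most tissues, while cystatins SN and S are best known from saliva and tears, and several cystatins have been studied in breast cancer. The description below covers these 5 genes, taken by symbol from the 36601 genes of the deposited matrices. They were picked with their level, share of positive cells and co-variation in these same libraries known, so all such values are descriptions and carry no test.

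The 2 conditions compared were of MDA-MB-231, a mesenchymal, triple-negative breast cancer line, each profiled by droplet single-cell RNA-seq in 1 library. D21 revertant cells had grown for 21 days without methionine, in medium with 100 µM L-homocysteine and 1.5 µM vitamin B12. D0 parental cells had grown in medium with 100 µM methionine, and the labels name no added vitamin B12 for them. The paper describes RPMI-1640 with fetal bovine serum for maintaining the line, and dialyzed serum for its custom RPMI-1640. It does not say which of these the D0 cells were in. The study's medium table lists the same vitamin mix for methionine and homocysteine media, without its vitamin B12 content. With 1 library per condition there is no replicate check, and culture, library and medium cannot be told apart. Each unit is a unique molecular identifier (UMI), a tag that marks 1 captured molecule, and all intervals are 95% intervals for counting error only.

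The libraries held 12487 D21 cells and 7492 D0 cells, with a median of 12022 UMIs per D21 cell and 18908 UMIs per D0 cell. The cells summed to 182839048 UMIs at D21 and 183098116 UMIs at D0, and 21 cell barcodes occurred in both libraries, 0.168% of D21 cells and 0.280% of D0 cells. The line's markers fitted its name. VIM, CD44, S100A4 and AXL lay between 261 and 2876 CPM (UMIs of a gene scaled to a fixed library total of 1000000) at D21 and between 297 and 4157 CPM at D0, whereas ESR1, PGR and ERBB2 did not exceed 10.2 CPM at D21 and 11.8 CPM at D0. Of the markers of other cells, the 5 fibroblast genes summed to 1.90 CPM at D21 and 3.05 CPM at D0, and the 4 endothelial genes to 7.17 CPM at D21 and 9.66 CPM at D0. The 4 leukocyte genes summed to 22.3 CPM at D21 and 28.4 CPM at D0, nearly all of it CD68. The 7 luminal epithelial genes summed to 1903 CPM at D21 and 2236 CPM at D0, nearly all of it the keratins KRT8, KRT18 and KRT19. CD3E had 0 UMIs at D21 and 1 UMI at D0.

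CST1, CST3 and CST4 are neighbours on chromosome 20 and share much of their sequence, which bears on how their counts can be told apart. In GENCODE release 29 on GRCh38, CST3 lies at chr20:23626706-23638473, CST4 at chr20:23685640-23689040 and CST1 at chr20:23747553-23751268, all on the reverse strand. CST2 (cystatin SA), which is no member but stands in the same cluster, lies at chr20:23823769-23826731 on that strand. CST6 is at chr11:66011841-66013505 on the forward strand and CSTB at chr21:43772511-43776445 on the reverse strand, and each of the 6 genes has 3 exons. The coding end of the chromosome 20 genes is shown because 3′ libraries read near it. Each line gives the 84 coding bases of the last exon, 5′ to 3′, with the bases that differ from CST1 in capitals. The stretches lie at chr20:23747816-23747899 (CST1), chr20:23685894-23685977 (CST4), chr20:23824020-23824103 (CST2) and chr20:23633916-23633999 (CST3).
CST1: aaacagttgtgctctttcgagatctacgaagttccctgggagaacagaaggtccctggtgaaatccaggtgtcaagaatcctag
CST4: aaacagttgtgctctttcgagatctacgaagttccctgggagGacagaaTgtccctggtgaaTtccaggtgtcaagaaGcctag
CST2: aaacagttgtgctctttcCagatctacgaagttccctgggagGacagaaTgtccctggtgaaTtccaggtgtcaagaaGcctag
CST3: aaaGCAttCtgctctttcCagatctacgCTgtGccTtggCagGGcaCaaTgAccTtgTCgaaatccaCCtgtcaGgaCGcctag

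CST4 differed from CST1 at 4 of these 84 bases, CST2 at 5 and CST3 at 23. Over the whole coding sequence, CST1 and CST4 were 92.7% identical, CST1 and CST2 91.3%, and CST1 and CST3 69.8%. In the last 500 bases of the transcripts, 63 of 411 windows of 90 bases (15.3%) were identical between CST1 and CST4, and no such window was shared by CST2, CST3, CST6 or CSTB with any other gene. The counts of CST1 and CST4 are therefore uncertain to the extent that reads fell in the shared stretch, and the deposited counts do not show how many did. CST3 also overlaps a long non-coding RNA gene on its own strand, AL121894.2, which held 51 UMIs at D21 and 89 UMIs at D0.

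Of the 5 genes, CST4 alone differed between the libraries by more than 1.5-fold, and CST3 was the next furthest. CST4, a salivary-type inhibitor, had 20820 UMIs in D21 cells and 40964 UMIs in D0 cells. Its level was 114 CPM at D21 and 224 CPM at D0, a D21/D0 ratio of 0.509 (0.501 to 0.518). Of the 6867 genes that reached 20 CPM in D21 or D0 cells, 4.59% passed 1.5-fold, 1.12% as higher and 3.47% as lower at D21, and 52 genes had a lower ratio than CST4. CST3, whose product is the main cystatin of body fluids, had 189489 UMIs at D21 and 274951 UMIs at D0. The level of CST3 was 1036 CPM at D21 and 1502 CPM at D0, with a ratio of 0.690 (0.686 to 0.694), and 318 genes had a lower one. With the higher UMI minimum of D0 applied to both libraries, the ratio of CST3 was 0.634, past 1.5-fold, and that of CST4 was 0.443.

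The other 3 genes lay closer to a ratio of 1. CST6, whose product inhibits legumain as well as cathepsins, had 5390 UMIs at D21 and 6611 UMIs at D0. This was 29.5 CPM at D21 and 36.1 CPM at D0, a ratio of 0.816 (0.787 to 0.846). CST1, with 71881 UMIs at D21 and 74985 UMIs at D0, reached 393 CPM at D21 and 409.5 CPM at D0, a ratio of 0.960 (0.9502 to 0.9698). With the D0 UMI minimum applied to both libraries, the ratio of CST1 was 0.802 and that of CST6 was 0.824. CSTB, the intracellular inhibitor, had 114642 UMIs at D21 and 114424 UMIs at D0. Its 627 CPM at D21 and 625 CPM at D0 gave a ratio of 1.00 (0.995 to 1.01), the only counting interval of the 5 that held 1. The intervals leave out the spread between cells, which was wide for CST1, as given below. They therefore do not settle whether the ratio of CST1 differed from 1. The order of the levels was CST3, CSTB, CST1, CST4 and CST6 in both libraries, on a scale where a transcript counts once whatever its length.

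Together the 5 genes made up 2200 CPM at D21 and 2796 CPM at D0, a ratio of 0.787 (0.784 to 0.790). Of them 4 were lower at D21, and CSTB had a ratio of 1.00 with an interval that held 1. Of all 6867 genes, 3476 were lower and 3391 higher at D21. The median log2 ratio of the 5 genes was -0.29, against -0.0030 over the 6867 genes. Among all genes ranked by level, CST3 stood at place 130 at D21 and 99 at D0, CSTB at 199 at D21 and 204 at D0, and CST1 at 320 at D21 and 313 at D0. CST4 stood at place 1383 at D21 and 623 at D0, the widest gap of the 5 in relative terms.

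Cells differed more in CST1, CST3 and CST4 than the library sums show. For shares of cells, each cell was thinned to 5422 UMIs at random, which left out no cell. CST4 had at least 1 UMI in 25.1% of D21 cells (24.3% to 25.9%) and 41.1% of D0 cells (40.0% to 42.2%), and in 34.1% of D21 and 61.8% of D0 cells before thinning. CST1 was detected in 32.4% of D21 cells (31.6% to 33.2%) and 42.0% of D0 cells (40.8% to 43.1%), or 41.5% of D21 and 59.7% of D0 cells unthinned. Cells positive for CST1 held more of it at D21, with a mean of 8.17 UMIs per positive D21 cell and 6.40 UMIs per positive D0 cell. For CST4 that mean was 2.90 UMIs at D21 and 3.32 UMIs at D0.

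CST3 was found in nearly all cells, in 89.6% at D21 (89.0% to 90.1%) and 96.8% at D0 (96.4% to 97.2%), and in 97.5% of D21 and 99.89% of D0 cells unthinned. Its median cell had 3 UMIs at D21 and 7 UMIs at D0, yet the top hundredth of cells began at 37 UMIs in both libraries. CSTB was detected in 94.4% of D21 cells (94.0% to 94.8%) and 95.05% of D0 cells (94.5% to 95.5%), with a median of 3 UMIs in each, and unthinned in 99.01% of D21 and 99.88% of D0 cells. CST6 was found in 12.7% of D21 cells (12.1% to 13.3%) and 17.2% of D0 cells (16.4% to 18.1%), at 26.1% of D21 and 45.6% of D0 cells unthinned.

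**Figure D1:**
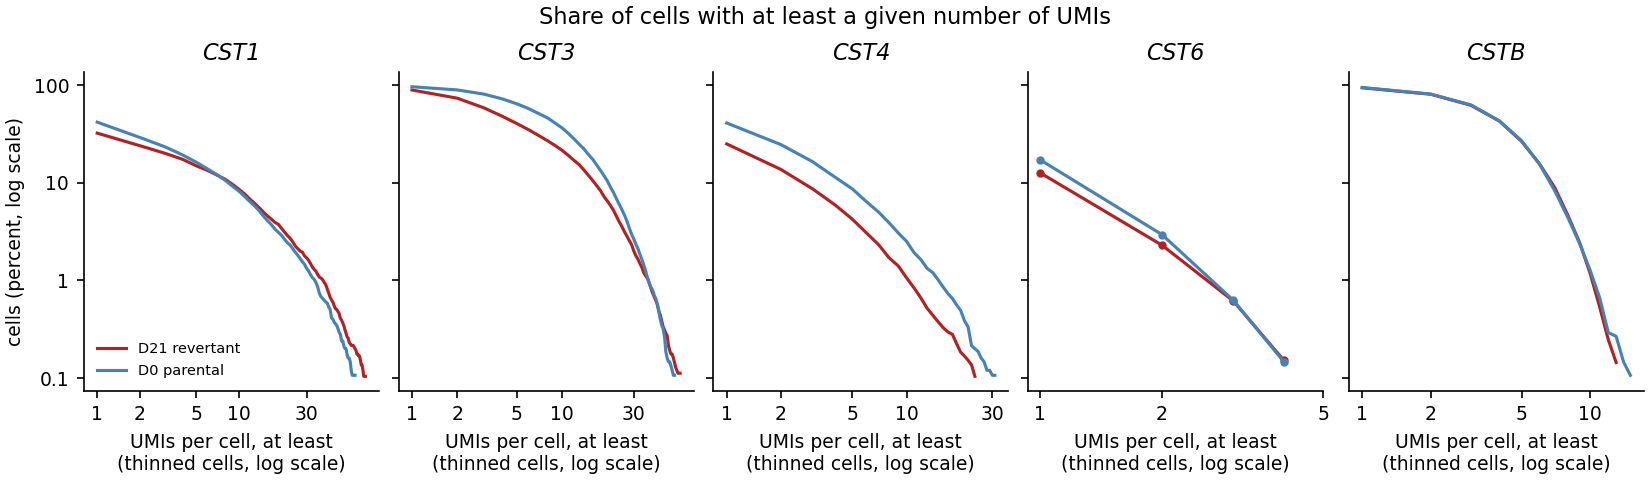
Share of thinned cells (percent, log scale) with at least a given number of UMIs per cell (log scale) for each gene, in D21 revertant cells (red) and D0 parental cells (blue). The CST1 curves cross, with 32.4% of D21 and 42.0% of D0 cells at 1 UMI or more but 8.62% of D21 and 8.24% of D0 cells at 10 or more, while the CST4 curve lies lower at D21 and those of CSTB overlie each other.

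The spread of CST1 between cells was wider than that of any gene of similar mean. Its variance over mean in thinned cells was 21.4 at D21 and 16.8 at D0, where Poisson sampling alone gives about 1, and the median of genes within 1.5-fold of its mean was 1.31 at D21 (225 genes) and 1.27 at D0 (236 genes). The tenth of cells with most CST1 held 75.3% of its UMIs at D21 and 67.6% at D0, and the highest cell had 144 UMIs at D21 and 125 UMIs at D0. CST3 likewise exceeded all 68 genes of like mean at D21 and all 74 at D0, at 9.62 in D21 and 7.24 in D0 cells. For CST4 the ratio was 6.35 at D21 and 6.63 at D0, exceeded by 3 of 1122 like genes at D21 and 2 of 516 at D0. CST6, at 1.39 in D21 and 1.27 in D0 cells, and CSTB, at 1.48 in D21 and 1.45 in D0 cells, were nearer to the medians of their like genes, 1.04 at D21 and 1.05 at D0 for CST6 and 1.35 at D21 and 1.39 at D0 for CSTB. CST6 still lay high among its like genes, exceeded by 51 of 2911 at D21 and 166 of 2791 at D0. CSTB was exceeded by 53 of 153 at D21 and 65 of 153 at D0.

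CST1, CST3 and CST4 varied together from cell to cell, and CST6 and CSTB stood outside this group. Across thinned cells, Pearson's r of log2(1 + UMIs) between CST1 and CST4 was 0.69 at D21 and 0.66 at D0 (12487 D21 and 7492 D0 cells, which share their library). It was 0.66 at D21 and 0.61 at D0 between CST1 and CST3, and 0.60 at D21 and 0.58 at D0 between CST3 and CST4. The highest of the other 7 pairs was CST3 with CSTB, at 0.11 at D21 and 0.11 at D0. CST4 was found in 60.6% of CST1-positive and 8.11% of CST1-negative D21 cells, and in 70.0% of CST1-positive and 20.3% of CST1-negative D0 cells. Reads of 1 gene that were assigned to the other would also place both in the same cells, and their share was not tested. CST3 was found in 98.5% of CST1-positive and 85.3% of CST1-negative D21 cells, and in 99.5% of CST1-positive and 94.8% of CST1-negative D0 cells.

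In cells grouped by CST1 UMIs, mean CST4 in cells without CST1 was 0.129 UMIs at D21 and 0.339 UMIs at D0. In cells with 20 or more CST1 UMIs it was 5.71 UMIs at D21 and 8.90 UMIs at D0. CST3 averaged 3.15 UMIs at D21 and 5.33 UMIs at D0 in cells without CST1, and 23.8 UMIs at D21 and 26.3 UMIs at D0 in the cells with 20 or more. Cells of like CST1 count carried less CST4 at D21 in each of the 6 groups. The same held for CST3 and CST6. It held for CST2 in all groups but that with 20 or more CST1 UMIs (2.29 UMIs at D21 and 2.22 UMIs at D0). Over all cells, there were 3.45 CST1 UMIs per CST4 UMI at D21 (3.40 to 3.51) and 1.83 at D0 (1.81 to 1.85).

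**Figure D2:**
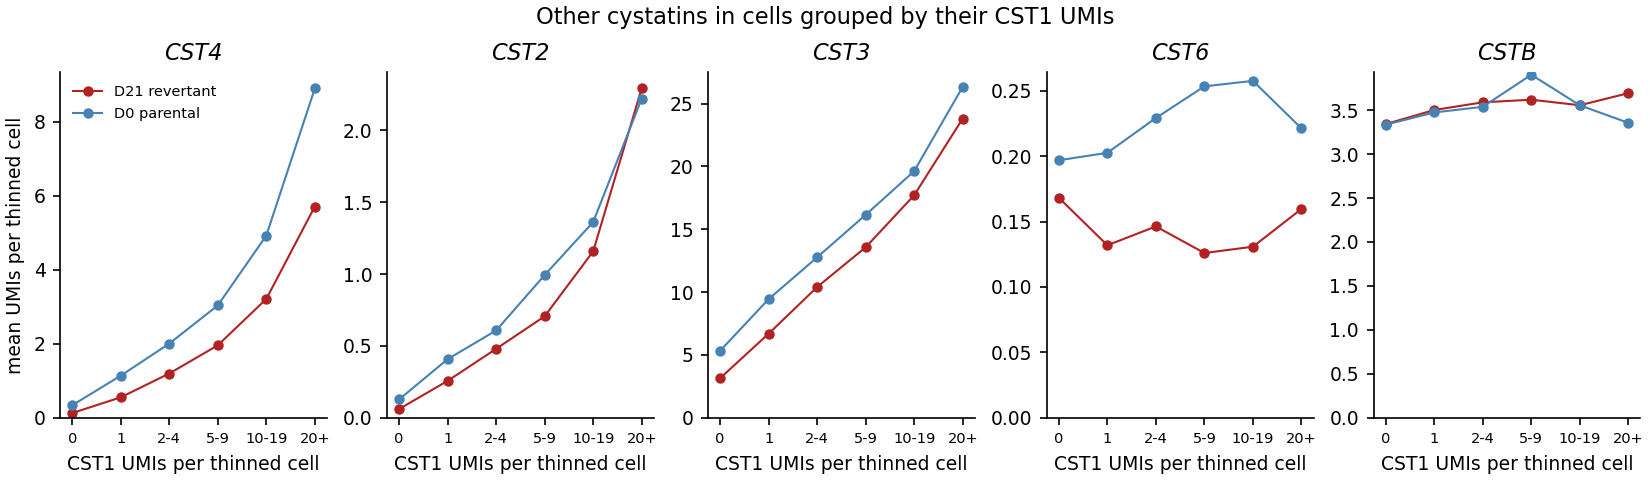
Mean UMIs per thinned cell of CST4, CST2, CST3, CST6 and CSTB in cells grouped by their CST1 UMIs, in D21 revertant cells (red) and D0 parental cells (blue). CST4, CST2 and CST3 increase with CST1 in both libraries, CST4 up to 5.71 UMIs at D21 and 8.90 UMIs at D0, while CSTB stays between 3.34 and 3.69 UMIs at D21 and between 3.33 and 3.90 UMIs at D0.

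The genes most like CST1 across cells, among 6364 genes with at least 20 CPM in both libraries and ranked by the lower of the 2 correlations, were CST4, CST3, CST2, S100A6 and ADIRF. CST2 had r of 0.54 at D21 and 0.48 at D0 with CST1. S100A6, a calcium-binding protein gene, had 0.50 at D21 and 0.44 at D0, and ADIRF 0.50 at D21 and 0.40 at D0. CST4 had the same 5 neighbours with CST1 in place of itself. For CST3 the order was S100A6 (0.66 at D21 and 0.66 at D0), CST1, CST4, ADIRF and TIMP1, the metalloproteinase inhibitor (0.47 at D21 and 0.47 at D0). CSTB correlated best with S100A11, GAPDH, S100A6, TMSB10 and FTH1, all abundant genes, at up to 0.19 at D21 and 0.20 at D0. The 5 genes nearest to CST6 were MT2A, TIMP1, RPS14, HLA-DRB1 and CD74, with r of at most 0.05 at D21 and 0.07 at D0, too weak to read as a finding in sparse counts.

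The line holds cells that express AGR2, SPANXB1, SOX4, FAM155A and AFF3 and cells that express CEMIP, SAA1, SAA2, FLG and NNMT. Cells were classed by which of these lists had more UMIs after thinning. The first class, called AGR2 cells here, held 4523 D21 cells (36.2%) and 4639 D0 cells (61.9%), and the second, called CEMIP cells, held 6535 D21 cells (52.3%) and 1899 D0 cells (25.3%). The lists came from an earlier clustering of these cells in which CST1 led the AGR2 side, so the difference between classes is a description. Of the AGR2 cells, 38.05% at D21 and 29.3% at D0 lay within 2 UMIs of equality, as did 27.9% of CEMIP cells at D21 and 40.2% at D0.

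CST1 was 8.23 times as high in AGR2 as in CEMIP cells at D21 and 6.73 times at D0. The same ratio was 6.62 at D21 and 5.54 at D0 for CST4, and 3.097 at D21 and 2.61 at D0 for CST3. CST6 had 0.943 at D21 and 1.19 at D0, and CSTB 0.995 at D21 and 1.10 at D0. Within AGR2 cells, CST1 was at 895 CPM at D21 and 616 CPM at D0, a D21/D0 ratio of 1.45 (1.43 to 1.47), although its ratio over all cells was 0.960. CST4 stayed lower within AGR2 cells, at 249 CPM at D21 and 336 CPM at D0, a ratio of 0.743 (0.728 to 0.757). CST3 was at 1825 CPM at D21 and 1984 CPM at D0 there, a ratio of 0.920 (0.913 to 0.927). CST6 was also lower at D21 in AGR2 cells, at 28.4 CPM at D21 and 38.6 CPM at D0, a ratio of 0.736 (0.694 to 0.780). In CEMIP cells the ratio of CST6 was 0.929 (0.877 to 0.985).

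In CEMIP cells, CST1 was at 109 CPM at D21 and 91.6 CPM at D0, a ratio of 1.19 (1.149 to 1.228). CST4 was at 37.7 CPM at D21 and 60.6 CPM at D0 in these cells, a ratio of 0.621 (0.593 to 0.650), and CST3 at 589 CPM at D21 and 761 CPM at D0, a ratio of 0.774 (0.765 to 0.784). In cells with equal UMIs of both lists, CST4 was at 123 CPM at D21 and 122 CPM at D0, a ratio of 1.00 (0.953 to 1.06), so it was not lower there. CST1 had its highest ratio in these cells, 1.69 (1.63 to 1.74), and CST3 had 0.964 (0.947 to 0.981). The genes of the lists differed between the libraries themselves, with D21/D0 ratios of 0.455 for AGR2 and 3.16 for SAA1, so a class need not span the same cells at D21 and D0. As an alternative chosen after seeing the data, each library was divided into 3 equal groups by the difference between the lists. CST1 then had a ratio of 1.39 in the group nearest the AGR2 list but 0.535 in the middle group and 0.575 in the group nearest the CEMIP list. CST1 was thus higher at D21 in CEMIP cells but lower in the equal group nearest the CEMIP list. On the AGR2 side CST1 was higher at D21 both ways. AGR2 cells made up 36.2% of D21 and 61.9% of D0 cells, and CEMIP cells 52.3% of D21 and 25.3% of D0 cells. An equal group therefore need not hold like cells in both libraries either. CST4 was lower at D21 in all 3 equal groups, with ratios of 0.660 nearest the AGR2 list, 0.332 in the middle and 0.346 nearest the CEMIP list. In the same order CST3 had ratios of 0.895, 0.501 and 0.605, and CST6 of 0.692, 0.781 and 0.969.

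**Figure D3:**
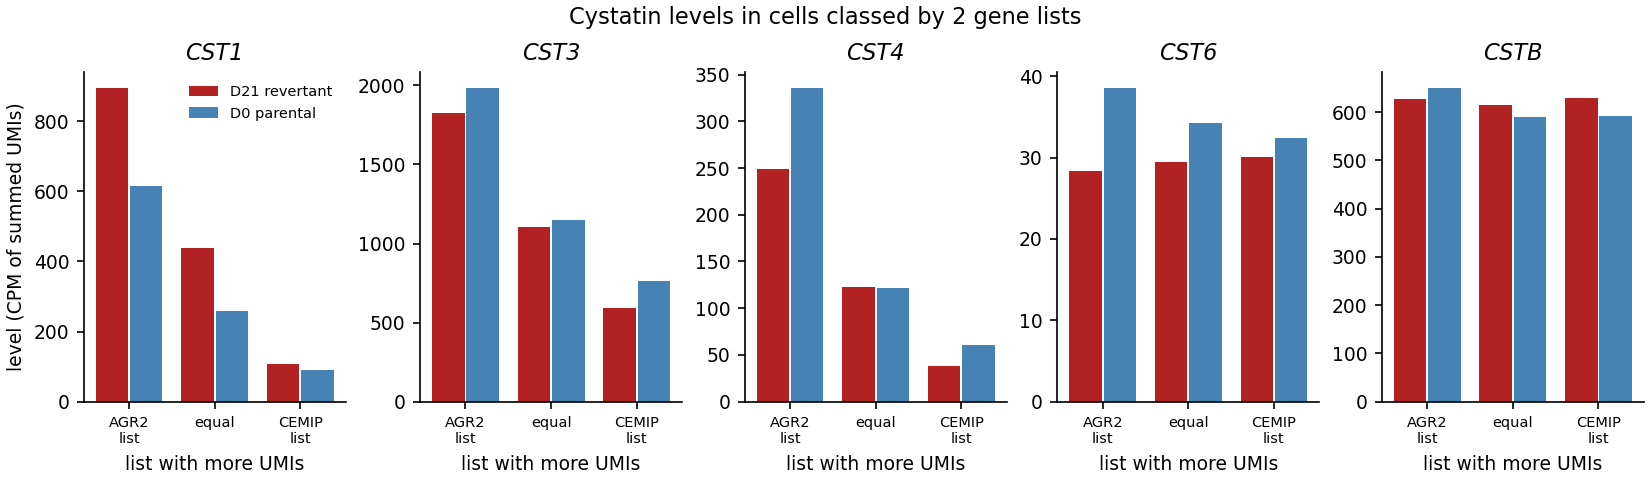
Level (CPM of summed UMIs) of each gene in AGR2 cells, cells with equal UMIs of both lists and CEMIP cells, for D21 revertant cells (red) and D0 parental cells (blue). CST1 is higher at D21 in AGR2 cells, at 895 CPM at D21 and 616 CPM at D0, where CST4 is lower, at 249 CPM at D21 and 336 CPM at D0, and CSTB stays between 615 and 629.6 CPM at D21 and between 589.6 and 650.4 CPM at D0.

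Inside AGR2 cells, r was 0.63 at D21 and 0.61 at D0 between CST1 and CST4, 0.63 at D21 and 0.57 at D0 between CST1 and CST3, and 0.56 at D21 and 0.54 at D0 between CST3 and CST4. Inside CEMIP cells it was 0.59 at D21 and 0.58 at D0 between CST1 and CST4, but lower for CST3, at 0.45 at D21 and 0.40 at D0 with CST1 and 0.41 at D21 and 0.38 at D0 with CST4. The 3 genes had higher levels in shallow cells than in deep ones. In 4 equal groups of cells by UMIs, CST1 was at 802 CPM in the shallowest and 278 CPM in the deepest D21 cells, and at 700 CPM in the shallowest and 307 CPM in the deepest D0 cells. CST4 was at 210 CPM in the shallowest and 88.3 CPM in the deepest D21 cells, and at 348 CPM in the shallowest and 184 CPM in the deepest D0 cells. Median UMIs per cell also differed between the classes, at 10394 in AGR2 and 13377 in CEMIP cells of D21, and at 17249 in AGR2 and 23260 in CEMIP cells of D0. The part of depth in these levels was not tested. With the summed UMIs of 5 mitotic genes, CST1, CST3 and CST4 had r between -0.14 and -0.06 at D21 and between -0.13 and -0.08 at D0. CSTB lay within these ranges, at -0.095 at D21 and -0.103 at D0, and CST6 had 0.01 at D21 and -0.02 at D0.

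**Figure D4:**
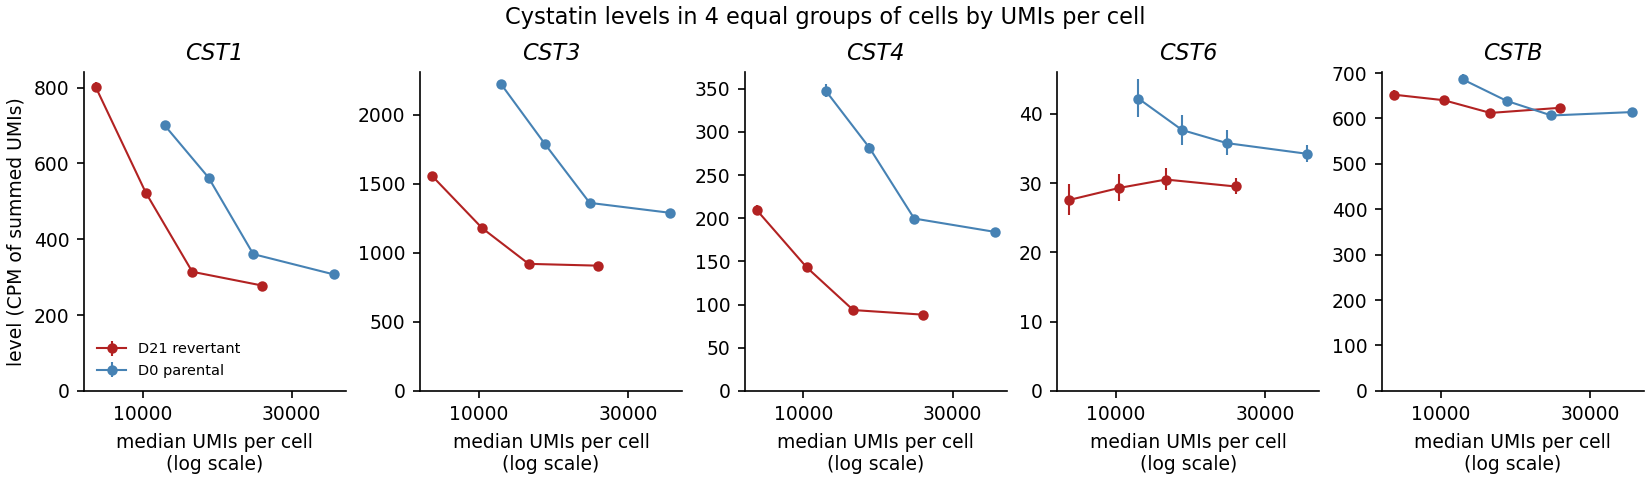
Level (CPM of summed UMIs, with 95% Poisson intervals) of each gene in 4 equal groups of cells ordered by UMIs, against each group's median of UMIs per cell (log scale), for D21 revertant cells (red) and D0 parental cells (blue). CST1, CST3 and CST4 are lower in deeper cells of both libraries, CST1 at 802 and 278 CPM in the outer groups of D21 and at 700 and 307 CPM in those of D0, whereas CSTB lies between 612 and 652 CPM at D21 and between 607 and 686 CPM at D0.

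A cell line holds no cell type that should lack these genes, so free RNA was gauged from barcodes with 10 to 100 UMIs. In these CST1 stood at 310 CPM at D21 and 390 CPM at D0, and CST4 at 92.7 CPM at D21 and 206 CPM at D0. Relative to the level in cells this was 0.788 at D21 and 0.953 at D0 for CST1, and 0.814 at D21 and 0.919 at D0 for CST4. The same ratio was 0.914 at D21 and 0.891 at D0 for CST3, and 0.895 at D21 and 1.02 at D0 for CST6. For CSTB it was 1.33 at D21 and 1.32 at D0. The cells with at least 10 UMIs of the CEMIP list and none of the AGR2 list served as a comparison, with 1498 such D21 cells (median 12011 UMIs) and 285 such D0 cells (median 19594 UMIs). In them, after thinning, CST1 was detected in 7.48% of D21 cells and 5.96% of D0 cells, CST4 in 3.60% of D21 and 5.96% of D0 cells, CST6 in 14.4% of D21 and 18.2% of D0 cells, CST3 in 84.8% of D21 and 90.9% of D0 cells, and CSTB in 94.8% of D21 and 95.4% of D0 cells. These cells were chosen by genes that vary with CST1 and CST4, so low shares of both follow from the choice. The part of free RNA in the shares was not tested for any of the 5 genes.

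Of the 13 further cystatin and cystatin-domain genes, CST2 alone reached 20 CPM, at 45.4 CPM at D21 and 69.0 CPM at D0, a ratio of 0.657 (0.639 to 0.676). CST7 (cystatin F) was at 2.06 CPM at D21 and 1.74 CPM at D0. CST5 had 33 UMIs at D21 and 84 UMIs at D0, CSTA (stefin A) 31 UMIs at D21 and 17 UMIs at D0, and AHSG 4 UMIs at D21 and 12 UMIs at D0. CST9 and CST9L had 1 UMI each at D21 and 0 UMIs at D0, FETUB, HRG and KNG1 had at most 2 UMIs in a library, and CST8, CST11 and CSTL1 had 0 UMIs in both, which allows up to 3 UMIs in each library.

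Of the 12 cysteine cathepsins and legumain, the proteases that cystatins act on, 6 reached 20 CPM. Of these 5 were lower and 1 was higher at D21, none past 1.5-fold, and their median log2 ratio was -0.35. Of all 6867 genes, 3476 were lower and 3391 higher at D21, 4.59% were past 1.5-fold and the median was -0.0030. CTSZ had 151 CPM at D21 and 207 CPM at D0, a ratio of 0.732, and CTSF 18.6 CPM at D21 and 25.3 CPM at D0, a ratio of 0.735. CTSF reached 20 CPM only at D0, so it too was counted through the library where it was higher. CTSL and CTSB, the main lysosomal endopeptidases of the family, had ratios of 0.782 and 0.792. Of 23 other protease inhibitors, 13 reached 20 CPM, 6 higher and 7 lower at D21. Their median log2 ratio was -0.12. TFPI2, a Kunitz-type inhibitor, was past 1.5-fold as higher at 48.1 CPM at D21 and 28.0 CPM at D0, a ratio of 1.72. SERPINA1, which encodes alpha-1 antitrypsin, was past it as lower at 15.1 CPM at D21 and 32.9 CPM at D0, a ratio of 0.461. SERPINA1 reached 20 CPM only at D0, so it was counted through the library where it was higher. TIMP3 had a ratio of 0.671 and SPINT2 of 0.747.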

How the data were processed

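MDA-MB-231 cells were profiled in 10x Genomics 3′ libraries, 1 per condition. The authors deposited UMI counts for each gene in each barcode, unnormalized and with empty droplets included. Cell Ranger 4 and GRCh38 are named in the submitters' processing notes, and the sources used here do not give the annotation release.

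Barcodes were called as cells from 10% of the UMI count at percentile 99 among the 5000 largest, which set a minimum of 5422 UMIs for D21 and 9009 UMIs for D0. Those with under 500 genes or over 20% mitochondrial UMIs were dropped, which removed 38 barcodes at D21 and 11 at D0. No doublet caller was run and doublets were kept; 1 alternative leaves out the 6% of cells with the most UMIs. Counts were summed over cells as CPM. Ratios have exact conditional Poisson intervals and shares exact Clopper-Pearson intervals, at 95%. No p-value was computed.

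Genes named are the 5 members, the further cystatins, the 5 genes most like each member, and up to 4 genes of each list furthest from a ratio of 1. Markers and the genes that class cells are named too, as are the cathepsin genes below 20 CPM, and AL121894.2 as an overlapping gene. PI3, SLPI and SERPINB2 are named outside these rules, after their values were seen. The members and lists were chosen with earlier results of these data known. The computations were tested on simulated data. Alternatives changed the UMI minimum, the mitochondrial limit, the deepest cells, the weight of cells, the denominator (with edgeR 4.0.16 TMM factors among them), the thinning, the correlation measure, the CPM minimum and the classes. Python 3.11.15, numpy 2.4.6, scipy 1.17.1, pandas 2.3.3 and matplotlib 3.10.9 were used. Sequences and coordinates are from GENCODE release 29. The windows of 90 bases are an assumed stretch of a read, not one given by the sources.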

Additional observations from a re-analysis of the deposited data

How the results depend on the processing

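With 1 library per condition, counting intervals are narrow and say nothing of variation between cultures. Those of the ratios also leave out the spread of counts between cells. A value is therefore given here where it left its counting interval. Every D21/D0 ratio over all cells kept its direction under each alternative except that of CSTB, which was 1.00 and lay below 1 with TMM factors (0.994), as a mean over cells (0.996) and with the D0 minimum in both libraries (0.997). CST3 passed 1.5-fold with the D0 minimum in both libraries and under no other alternative. With the D0 minimum in both libraries the ratio was 0.802 for CST1, 0.634 for CST3, 0.443 for CST4 and 0.727 for the sum. With doubled minimums it was 0.921 for CST1, 0.493 for CST4 and 0.852 for CST6. With a mitochondrial limit of 10% it was 0.927 for CST1, 0.678 for CST3, 0.488 for CST4 and 0.773 for the sum. Without the 6% of cells with the most UMIs it was 0.973 for CST1, 0.702 for CST3, 0.534 for CST4, 1.01 for CSTB and 0.799 for the sum. As a mean over cells it was 0.987 for CST1, 0.533 for CST4 and 0.779 for CST6. TMM factors gave 0.684 for CST3 and 0.780 for the sum. Without mitochondrial and ribosomal protein genes in the denominator it was 0.981 for CST1, 0.706 for CST3, 0.520 for CST4, 1.03 for CSTB and 0.804 for the sum. The cause of these shifts was not tested.

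The share of positive cells, D21 minus D0, was -9.57 points for CST1, -7.19 for CST3, -16.0 for CST4 and -4.55 for CST6. Unthinned it was -18.2 for CST1, -2.35 for CST3, -27.7 for CST4 and -19.5 for CST6. At 10844 UMIs per cell, which leaves out 5253 D21 and 577 D0 cells, it was -14.4 for CST1, -2.29 for CST3, -23.2 for CST4 and -6.72 for CST6. The 3 pairs among CST1, CST3 and CST4 had a correlation of at least 0.5 in both libraries under both other measures. Genes past 1.5-fold numbered 315 of 6867 (4.59%) at 20 CPM and 678 of 11001 (6.16%) at 5 CPM. The CST1 ratio in CEMIP cells was 1.19 by class and 0.575 in the equal group nearest the CEMIP list. No paired analysis was possible because there is 1 library per condition.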

Other observations

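Among the other protease inhibitors, 3 genes below 20 CPM in both libraries had far more UMIs at D21, and were chosen after their values were seen. PI3, which encodes the elastase inhibitor elafin, had 288 UMIs at D21 and 10 UMIs at D0, a ratio of 28.8 (15.5 to 60.8). SLPI, the secretory leukocyte protease inhibitor gene, had 432 UMIs at D21 and 38 UMIs at D0, a ratio of 11.4 (8.16 to 16.3). SERPINB2, which encodes plasminogen activator inhibitor type 2, had 392 UMIs at D21 and 66 UMIs at D0, a ratio of 5.95 (4.57 to 7.84). Their levels stayed at or below 2.36 CPM at D21 and 0.360 CPM at D0.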
